A study of Mus musculus with 8 samples.

Results

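The regions described here are the widest peaks of N6-methyladenosine (m6A) that lie in a single exon of a transcript. They were chosen by their measured width, as the peaks of the deposited lists with 1 exon block of at least 1500 nt. The control list held 458 of them in 440 genes, out of 29586 peaks in 11390 genes, and the PTC list held 375 in 362 genes, out of 23368 peaks in 10859 genes. Together the 833 peaks name 573 genes. Width, and the fold enrichment and false discovery rate (FDR) that the authors gave to the same peak, are description only.

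The study measured m6A in mouse primary T cells that were kept as controls or treated for 24 h with PTC, an agent that the labels do not describe. In each condition 2 samples were immunoprecipitated for m6A and 2 were sequenced as input, 8 samples in all, and the labels do not say whether samples of a group came from separate cultures or animals. The strain, age and genotype of the animals are not given in the labels. Each condition is represented by 1 peak list, so no difference between the lists can be set against a spread between samples, and no test between conditions was made.

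m6A is placed on nascent messenger RNA by a complex around METTL3 and METTL14, which RBM15 and WTAP help to bring to its targets, at adenosines in the consensus DRACH (D stands for any base but C, R for a purine and H for any base but G). It is known to gather in long internal exons and in last exons around the stop codon. Exon junction complexes, which sit just upstream of splice junctions, are known to keep methylation away from short exons, so that long stretches without a junction are where the mark is usually found.

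Short stretches around the GGACT form of DRACH are printed for members that recur below. Il2rb, Il4ra and Cd28 are receptors of T cells with a wide peak in both lists, the Bcl2 stretches lie in its wide control peak, and Ahnak and Son show the motif inside coding repeats. Each runs 5′ to 3′ on the transcript strand, with coordinates on GRCm38 and GGACT in capitals, and the genes were chosen after their values were seen.
Il2rb, coding sequence, chr15:78481701-78481725, minus strand: cctgcatgagGGACTtccctcccta
Il2rb, 3′ UTR, chr15:78481451-78481475, minus strand: caggtggccaGGACTgggatccagc
Il2rb, 3′ UTR, chr15:78481370-78481394, minus strand: ccactgctgaGGACTgtcctggcta
Il2rb, 3′ UTR, chr15:78480628-78480652, minus strand: ccaccgagctGGACTtgagtgtacg
Il4ra, coding sequence, chr7:125576479-125576503, plus strand: gcagcagcggGGACTgacgatgggc
Il4ra, coding sequence, chr7:125576565-125576589, plus strand: atttactttcGGACTagacacggag
Il4ra, 3′ UTR, chr7:125577540-125577564, plus strand: tgaacagccaGGACTgggactagag
Cd28, 3′ UTR, chr1:60770964-60770988, plus strand: atatgtcctaGGACTcaggactcca
Cd28, 3′ UTR, chr1:60771107-60771131, plus strand: gaatgaaggtGGACTttcttttttg
Bcl2, 3′ UTR, chr1:106542701-106542725, minus strand: ggtcttccatGGACTggagaaggga
Bcl2, 3′ UTR, chr1:106540999-106541023, minus strand: agatgtgtcaGGACTcctcttatcc
Bcl2, 3′ UTR, chr1:106539827-106539851, minus strand: ataataatcaGGACTgaatgtagat
Ahnak, coding sequence, chr19:9003809-9003833, plus strand: tgccagatgtGGACTtacacttaaa
Ahnak, coding sequence, chr19:9004940-9004964, plus strand: tgcctgatgtGGACTtaaacatgaa
Ahnak, coding sequence, chr19:9005696-9005720, plus strand: tgcctgatgtGGACTtgaatattaa
Ahnak, coding sequence, chr19:9007037-9007061, plus strand: tgcccgatgtGGACTtgaattttaa
Son, coding sequence, chr16:91656594-91656618, plus strand: ccaataccatGGACTcccagatgtt
Son, coding sequence, chr16:91656624-91656648, plus strand: ctagcaccatGGACTcccagatgtt
Son, coding sequence, chr16:91656714-91656738, plus strand: ctagctctatGGACTcccagatgtt
Son, coding sequence, chr16:91656774-91656798, plus strand: ccagcagtatGGACTcccagatgtt

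The wide peaks took up 990.5 kb of the control list and 806.2 kb of the PTC list, which is 7.84% and 7.92% of all peak bases. Their median width was 1915 (control) and 1882 nt (PTC), against 268 and 270 nt over all peaks, and 47 control and 37 PTC members reached 3000 nt. The minimum of 1500 nt cut through a continuous range of widths. Single-exon peaks in the 100 nt below the minimum numbered 92 (control) and 80 (PTC), and those in the first 100 nt from it 89 and 63. Just inside stood Dcun1d1, Fbxo42, Ffar2 and Gprin3 of the control list and Ckap4, Dcun1d1, Ddx42 and Il2rb of the PTC list, each at 1500 nt. Just outside stood Mgat1 and Twistnb at 1499 nt in the control list, and Aak1, Ankfy1, Dyrk3 and Kbtbd7 at 1499 nt in the PTC list.

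The widest PTC peak lay in Ahnak, a giant scaffold protein, and ran over 10934 nt of the last exon, chr19:9007777-9018710, with a fold enrichment of 8.95. In the control list the same Ahnak peak was 10875 nt wide with a fold enrichment of 10.8. A second Ahnak peak upstream in that exon was 5453 (control) and 5603 nt (PTC) wide, so that each list placed 2 members in the Ahnak exon of 17498 nt. Other members above 4000 nt included the 3′ UTR of Bcl2 at 4878 nt among control peaks and the coding exon of Zfp646 at 5266 nt among PTC peaks. Rlf and Zkscan1, both zinc finger genes, had members of 4822 and 4586 nt among control peaks and of 4732 and 4286 nt among PTC peaks. Prr14l had 4557 (control) and 4437 nt (PTC). Nrip1, a corepressor of nuclear receptors, had 4169 and 4229 nt.

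Fold enrichment is the authors' linear ratio for a peak, taken as immunoprecipitate over input. Its median was 6.74 over the control members and 7.11 over the PTC members, with 3.65 and 3.66 over all peaks. A fold of at least 4 was given to 411 of 458 control members and to 350 of 375 PTC members, where the background over all peaks was 45% (control) and 45.2% (PTC). The median −log10 FDR was 44.3 for control and 64.1 for PTC members, against 5.47 and 6.61 over all peaks, and the lowest was 5.94 and 6.72. All 458 and all 375 thus reached a −log10 FDR of 5, where the background was 53.4% of control and 59.8% of PTC peaks. The members with the highest folds were not those with the lowest FDRs. Zfp790, a zinc finger gene, had the highest control fold, 47.1, at a −log10 FDR of 23.8, and Ckap4, an endoplasmic reticulum protein, had the highest PTC fold, 39.2, with a −log10 FDR of 11.5. At the other end Selplg, the selectin ligand PSGL-1, had a control fold of 2.03 with a −log10 FDR of 219. For 7 members in each list the FDR had no finite logarithm, among them Il2rb, Satb1 and the noncoding RNA Malat1 in both lists, Jun and Btg1 in the control list, and Son and Selplg in the PTC list.

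Protein-coding genes held 435 of the 458 control members and 358 of the 375 PTC members. Pseudogenes held 13 control and 9 PTC members, and long intergenic noncoding RNA genes 6 and 4. Of the members in protein-coding genes, 238 in the control list (54.7%, exact Clopper-Pearson 95% interval 49.9 to 59.5) and 237 in the PTC list (66.2%, 61.0 to 71.1) had their midpoint in coding sequence. In the 3′ UTR lay 191 control members (43.9%, 39.2 to 48.7) and 115 PTC members (32.1%, 27.3 to 37.2). Over all peaks in protein-coding genes the coding share was 42.2% (control) and 41.0% (PTC), and over single-exon peaks of any width it was 28.9% and 32.1%. The 2 lists thus held nearly the same number of wide peaks centred in coding sequence. In 3′ UTRs the control list held 191 and the PTC list 115. The 3′ UTR share over all peaks is not set beside these counts. They therefore do not show whether the gap is particular to wide peaks. The lists also differed in size, and the authors' deposited summary table puts 36.07% of control and 33.03% of PTC reads in peaks. That table counts 19420 control and 15855 PTC peaks, fewer than the lists hold, so its percentages may refer to other peak sets. The part of list size and reads in peaks in the 3′ UTR counts of 191 and 115 was not tested. These intervals cover counting error only.

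Many members crossed a stop codon. An annotated stop codon lay inside 286 of the 435 control members (65.7%, 61.1 to 70.2) and 237 of the 358 PTC members (66.2%, 61.0 to 71.1), against 20.7% and 25.9% of all peaks in protein-coding genes. Il2rb, Il4ra and Cd28 are of this kind. Bcl2 is not, since its wide control peak in the last exon held no stop codon. Members are far wider than most peaks and have more room for a stop codon. The contrast with all peaks is therefore partly set by the choice of members.

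**Figure D1:**
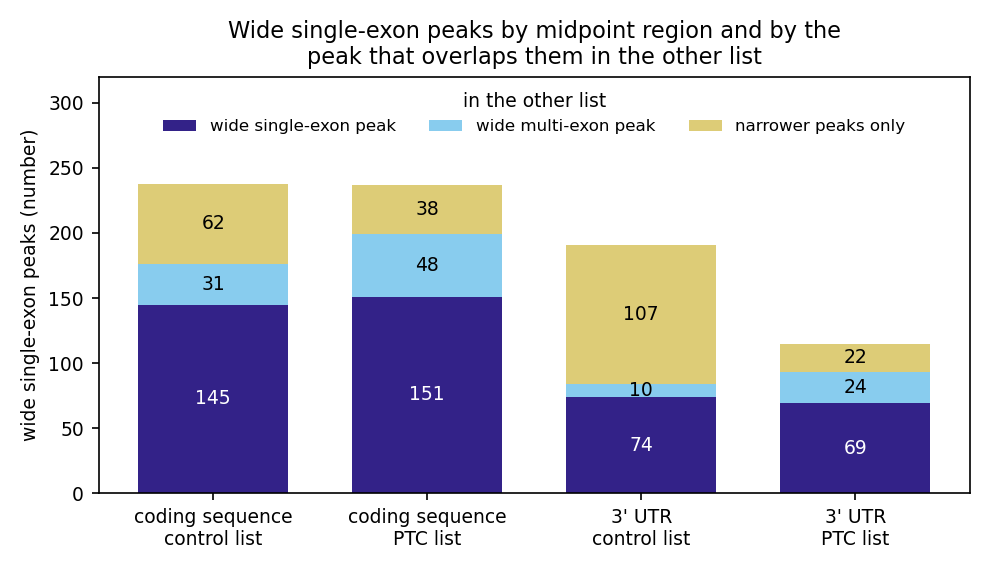
Number of wide single-exon peaks (y axis) whose midpoint lay in coding sequence or 3′ UTR, for the control and the PTC list, split by the widest kind of peak that overlapped them in the other list. The coding bars stand at 238 and 237, and the 3′ UTR bars at 191 and 115, of which 107 and 22 met only peaks narrower than 1500 nt.

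Last exons held 324 control and 255 PTC members, internal exons 57 and 60, first exons 10 and 11, and the single exon of an intronless transcript 66 and 48. Nearly all members in internal exons were coding, 56 of 57 (control) and 58 of 60 (PTC). Last exons were mixed, with 178 control members centred in the 3′ UTR and 137 in coding sequence, and with 107 and 142 PTC members. Tet2, which oxidises methylated cytosine in DNA, shows both kinds in 1 gene. Exon 3 carried a member over 98.2% (control) and 95.4% (PTC) of its 3206 nt, and its last exon carried a member of 2039 nt in each list. Other internal exons that were covered almost end to end belonged to Prr14l (99.2% of 4594 nt in the control list), Zfp646 (98.4% of 5349 nt in the PTC list) and Tnrc6c, a partner of Argonaute proteins in microRNA silencing (95.6% of 2601 nt in the control list). Kmt2c, a histone methyltransferase, had a PTC member over 93.2% of an internal exon of 1707 nt.

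Members tended to begin close to the start of their exon. Of 443 control members contained in 1 annotated exon, 222 began within 100 nt of the 5′ end of the exon, and of 363 such PTC members 187 did. The median distance was 100 nt (control) and 94 nt (PTC). At the other end the median distance was 743 and 659 nt, and 20 control and 34 PTC members stopped at the last base of the exon. In last exons the median 3′ distance was 972 nt (control) and 808.5 nt (PTC), and in internal exons it was 130 and 156 nt. The median member covered 62.0% (control) or 62.9% (PTC) of its exon. Il4ra, the receptor chain for interleukin 4, is an example with a shorter 5′ and a longer 3′ distance than these medians. Its control member, chr7:125575533-125577951, began 9 nt into the last exon and stopped 1523 nt before its end, and its PTC member began 39 nt in and stopped at the same base. Peaks that cross a junction fall outside the rule, and a wide peak leaves little room in a shorter exon. These distances are therefore partly set by the choice of members.

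**Figure D2:**
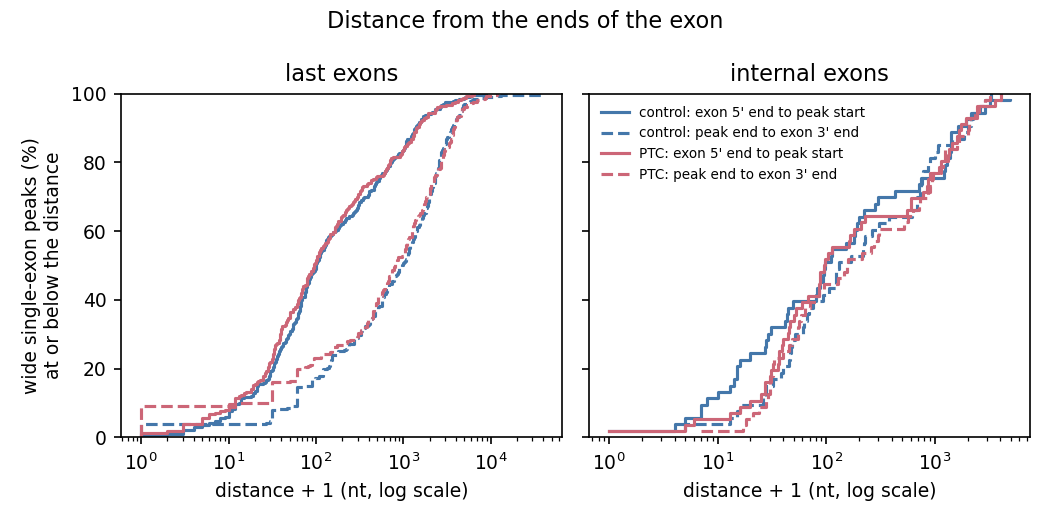
Cumulative share of wide single-exon peaks (y axis, percent) against the distance from the exon 5′ end to the peak start (solid) and from the peak end to the exon 3′ end (dashed), in nt plus 1 on a log scale, for last and internal exons and both lists. In last exons the solid curves lie far to the left of the dashed ones, with medians of 100 against 972 nt in the control list, while in internal exons the medians were 96 and 130 nt.

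To see how often a long exon held a wide peak, 5399 annotated exons of at least 1500 nt were taken from protein-coding genes with peaks in both lists. A peak of any width touched 92.9% (control) and 91.3% (PTC) of them, and a member lay in 420 and 342. Among the 813 exons that were mostly coding, 17.3% (14.8 to 20.1) held a control member and 17.6% (15.0 to 20.4) a PTC member. Among the 4586 exons that were mostly UTR, 6.08% (5.41 to 6.82) held a control member and 4.34% (3.77 to 4.97) a PTC member. The share grew with exon length in both kinds. For exons of 4000 nt or more it was 36.6% (26.2 to 48.0) for control and 43.9% (33.0 to 55.3) for PTC when mostly coding, and 13.1% (11.1 to 15.4) and 9.22% (7.51 to 11.2) when mostly UTR. A longer exon has more room for a peak of 1500 nt, so the growth with length is partly set by the choice of members.

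**Figure D3:**
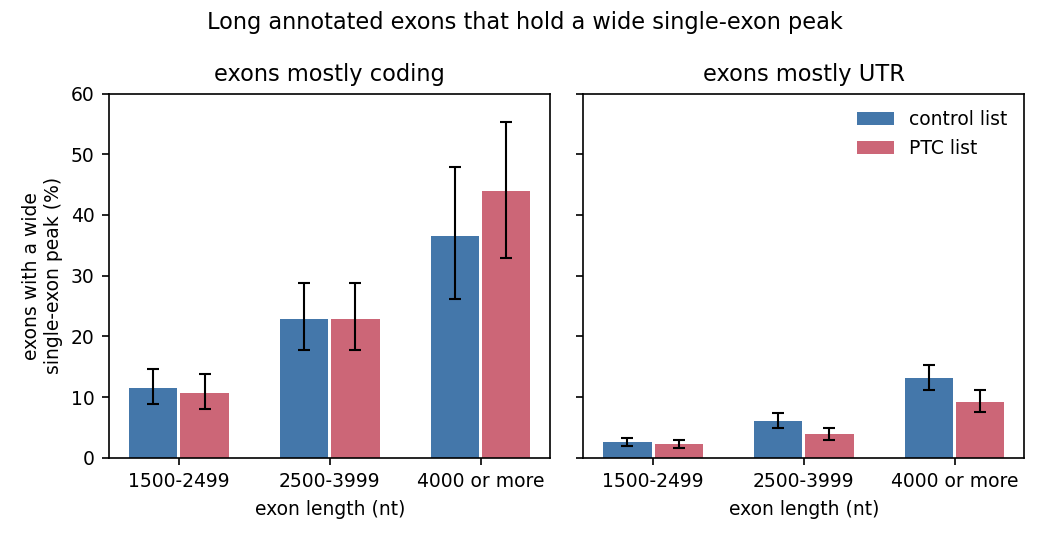
Share of long annotated exons that hold a wide single-exon peak (y axis, percent, bars from 0) by exon length in nt, for exons that are mostly coding (left) or mostly UTR (right), in the control and PTC lists, with error bars for exact 95% binomial intervals. Among exons of 4000 nt or more the coding bars stand at 36.6% and 43.9% and the UTR bars at 13.1% and 9.22%.

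Every wide peak was met by a peak of the other list. All 458 control members shared at least 1 bp on the same strand with a PTC peak, and all 375 PTC members with a control peak, where the background over all peaks was 60.2% of control and 78.8% of PTC peaks. Over peaks with a −log10 FDR of at least 5 the background was 82.7% and 93.7%, and a wide peak has more bases in which to meet another. Control members were covered over 88.1% of their bases by PTC peaks, and PTC members over 95.6% by control peaks. The least covered was Desi2, a 3′ UTR member of 1557 nt in the control list, with 21.3%. After it came Ffar2, a receptor for short-chain fatty acids, with 26.1%, and Camk2d, a calmodulin-dependent kinase, with 30.1%.

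The peaks that met a member were often narrower than it. Members were chosen for their width in their own list, so these counts draw on the value that chose them and are description only. A wide single-exon peak of the other list met 236 control members (51.5%, 46.8 to 56.2) and 237 PTC members (63.2%, 58.1 to 68.1). A peak of at least 1500 nt that also reached across a splice junction met another 44 control and 73 PTC members. The remaining 178 control members (38.9%, 34.4 to 43.5) and 65 PTC members (17.3%, 13.6 to 21.5) met narrower peaks only. These narrower peaks still covered a median of 79.8% of the control members and 83.7% of the PTC members, and 132 of the 178 and 51 of the 65 were met by 2 or more of them. Of the 178 control members, 107 lay in 3′ UTRs, which is 107 of 191 control members there (56.0%, 48.7 to 63.2), and 62 in coding sequence, which is 62 of 238 (26.1%, 20.6 to 32.1). For the PTC list the same shares were 22 of 115 in 3′ UTRs (19.1%, 12.4 to 27.5) and 38 of 237 in coding sequence (16.0%, 11.6 to 21.3).

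Bcl2, whose product blocks mitochondrial apoptosis, was divided into the peaks drawn in the peak maps. Its control peak ran unbroken over 4878 nt of the last exon, chr1:106538208-106543085, 93.4% of it, 6.94-fold enriched at a −log10 FDR of 140. The PTC list had 6 peaks there of 1437, 1138, 300, 420, 121 and 270 nt, in order from the 5′ end, which covered 75.6% of the control peak. Their folds ran from 1.23 to 5.59. The first of them was the strongest, with a −log10 FDR of 298. Another Bcl2 peak of at least 1500 nt began in the first exon in both lists, with 1767 (control) and 1827 nt (PTC), and ran past the annotated end of that exon.

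Jun, a subunit of the AP-1 transcription factor encoded by 1 exon, had a control member of 2355 nt, chr4:95049868-95052222, with a fold of 6.84. In the PTC list it had peaks of 895, 418 and 805 nt with folds of 5.96, 1.5 and 7.9. The weak middle peak and the gaps beside it divided 1 control region into 3, and 87.4% of the control peak remained covered. Rest, a repressor of neuronal genes, went from a control peak of 4076 nt to a PTC peak of 1828 nt with the same start, followed by 4 short peaks with folds from 1.59 to 1.84. Larp4b, an RNA-binding protein, went from 3650 nt in the control list to 1795 nt beside shorter peaks in the PTC list.

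Division also occurred in the other direction. Golgb1, a Golgi matrix protein, had a PTC member of 4554 nt with a fold of 7.53, chr16:36911924-36916477, where the control list had peaks of 2847 and 1199 nt with folds of 5.02 and 5.58. Ssh1, a cofilin phosphatase, had a PTC member of 3174 nt where the control list had 211, 1348 and 1588 nt. Mki67, the proliferation marker Ki-67, had a PTC member of 5241 nt and a control member of 4163 nt with a junction-crossing control peak beside it.

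**Figure D4:**
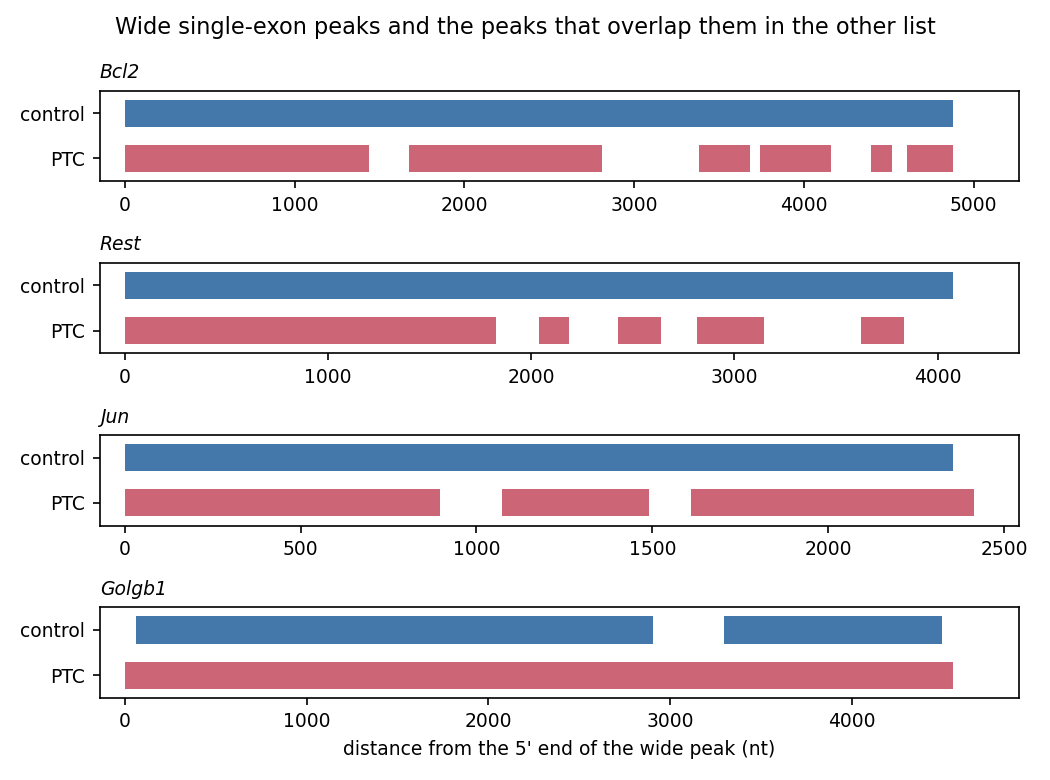
Position of the widest single-exon peak of 4 genes and of the peaks that overlap it in the other list, as bars along the distance from the 5′ end of the wide peak (x axis, nt), control in blue and PTC in red. The 4878 nt control peak of Bcl2 faces 6 PTC peaks and the 4554 nt PTC peak of Golgb1 faces 2 control peaks.

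Other genes were named in 1 list only because the peak of the other list crossed a junction and so fell outside the rule. Son, a splicing cofactor, had 2 PTC members of 2850 and 1620 nt, while the control list held a single peak of 6089 nt over 3 exon blocks that contained both. Asxl1, a Polycomb-linked chromatin factor, had a control member of 3708 nt and a PTC peak of 4395 nt over 2 blocks. Kmt2a, Ep300, Socs4, Ifnar2, Il10ra and the m6A reader Ythdc1 had PTC members that met a junction-crossing control peak of at least 1500 nt. By gene, 229 had a member in both lists, 211 in the control list only and 133 in the PTC list only. Genes with a member were 3.86% of genes with a control peak and 3.33% of genes with a PTC peak. All 211 and all 133 had some peak in the other list, where the background was 86.4% of genes with a control peak and 90.6% of genes with a PTC peak.

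Where both lists had a wide single-exon peak, the positions were close. There were 239 overlapping pairs in the same gene, with a median of 91.5% of their union shared. In 104 pairs both ends lay within 100 nt, and 21 pairs were identical to the base, among them Il2rb, Malat1, Chd9, Dcun1d1, Fam220a, Iqcg and Nfe2l1. The control peak was wider in 130 pairs, the PTC peak in 77, and 32 were of equal width, with a median difference of −30 nt (PTC minus control). Many shifts were whole multiples of 30 nt, 176 of 239 pairs at the 5′ end and 169 at the 3′ end, unshifted ends included. A median difference of −30 nt is therefore 1 such step. Both peaks of a pair had to reach the minimum width in a single exon and to overlap. The shared part and the differences in width and position are therefore partly set by the choice of members. Genes whose members overlap within a list, Gm8995 and Epm2aip1 among them, gave more than 1 pair.

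**Figure D5:**
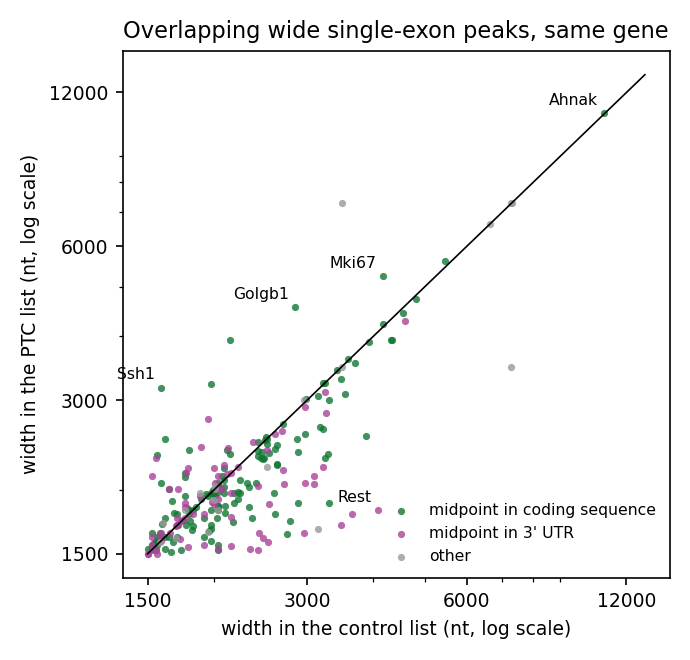
Width of overlapping wide single-exon peaks of the same gene in the control list (x axis, nt, log scale) and the PTC list (y axis, nt, log scale), coloured by midpoint region, with a line of equal width. Most of the 239 pairs lie near the line, with Rest at 4076 against 1828 nt and Golgb1 at 2847 against 4554 nt away from it, and 1 pair is not drawn; 2 grey points far from the line belong to Gm8995, which has a 7280 nt and a 3490 nt member in each list that overlap each other.

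Over all genes with a peak, the share with a member was 3.86% (control) and 3.33% (PTC), as given above, and the gene groups are set beside it. Of 52 receptors and ligands of lymphocytes with a control peak, 8 had a control member, and of 51 with a PTC peak 10 had a PTC member. Ccr4, Cd28, Cxcr5, Il2rb, Il4ra, Il6st and Notch2 were among those with one in both lists, and Ifnar2 and Il10ra had one in the PTC list. Il2rb, the receptor chain shared by interleukins 2 and 15, had the same 1500 nt in both lists, chr15:78480425-78481924, with a fold of 3.4 (control) and 3.82 (PTC). Cd28, the main costimulatory receptor, had 2539 nt with a fold of 6.54 in the control list, chr1:60769686-60772224, and 1882 nt with a fold of 7.4 in the PTC list. Il6st, the signalling chain gp130 of the interleukin 6 family, had 3211 nt (control) and 2221 nt (PTC), and a separate PTC peak of 331 nt with a fold of 4.14 lay in the downstream part of the control member. Notch2 had 2367 and 2486 nt. The chemokine receptors Ccr4 and Cxcr5 had control members of 1934 and 1726 nt and PTC members of 1963 and 1607 nt.

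Among lymphocyte transcription factors, 5 of 60 with a control peak and 2 of 58 with a PTC peak had a member. Bcl11b, needed for T cell commitment, had control members of 2605 nt in coding sequence and 1617 nt in the 3′ UTR. In the PTC list it had 1 member of 1796 nt. Satb1, a chromatin organiser of thymocytes, had 1829 (control) and 1799 nt (PTC) with folds of 3.76 and 4.87. Jun, Egr2 and Zeb1 had members in the control list only, and each was covered by narrower PTC peaks over 87.4%, 84.2% and 89.1%.

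Of the chromatin regulators, 11 of 65 genes with a control peak and 11 of 64 with a PTC peak held at least 1 member. Arid1b, Arid5b, Asxl2, Crebbp, Kmt2d, Kmt5b and Tet2 were among those in both lists. Crebbp, a histone acetyltransferase, went from 3236 nt to 2308 nt, with a separate PTC peak of 571 nt in the same stretch. Of the m6A machinery, 2 of 18 genes with a control peak and 3 of 17 with a PTC peak held a member. Rbm15 and Rbm15b, the adaptors of the writer complex, had coding members in both lists, and Ythdc1 had a 3′ UTR member in the PTC list. Rbm15 had 2455 nt with a fold of 7.53 in the control list and 2306 nt with a fold of 12.2 in the PTC list. Rbm15b had 2091 and 1972 nt. The writer complex adaptors are intronless in the transcripts that hold these members.

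Among regulators of mRNA decay and translation, 8 of 38 genes with a control peak held a control member and 5 of 38 with a PTC peak held a PTC member. Tnrc6a, Tnrc6b, Pan3 and Larp4b were in both, while Btg1, Eif5, Tnrc6c and Zfp36l2 were in the control list only and Zc3h12c in the PTC list only. The control member of Tnrc6c met a junction-crossing PTC peak of 2366 nt. Of 45 BTB and zinc finger genes with a peak in each list, 12 held a control member and 7 a PTC member. Of the signalling genes, 7 of 67 with a control peak and 5 of 65 with a PTC peak held one. The cytokine signalling inhibitor Socs5 and the kinase Stk4 did in both. Socs3 and Socs6 had a member in the control list only, and Socs4 in the PTC list only. Of the ubiquitin enzymes, 5 of 53 genes (control) and 3 of 56 (PTC) held a member, with Otud4 and Trim56 in both. Of cyclins and their kinases, 2 of 24 did in each list. Of the apoptosis genes Bcl2 alone did, 1 of 33 (3.03%, control) and 1 of 31 (3.23%, PTC), which is near the share over all genes. Of the genes listed as noncoding RNAs and host genes, 3 of 18 (control) and 3 of 19 (PTC) held a member, among them the long noncoding RNAs Malat1 and Neat1. The remaining one was 9930111J21Rik1, whose control member was centred in coding sequence. Tug1, outside that list, had noncoding exon members of 2965 (control) and 2995 nt (PTC).

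Markers of other cells were looked at beside these counts. Of 18 T cell markers, 17 had a control peak and 18 a PTC peak, and none of 6 hepatocyte markers had a peak in either list. Of 10 B cell markers 9 had a peak in each list, all but Cd79a, and of 11 myeloid markers 7 (control) and 8 (PTC) did. The myeloid markers Itgam, Adgre1 and Fcer1g had none. Of the listed B cell genes, 2 of 18 with a control peak and none of 17 with a PTC peak held a member. These were Pax5 (1795 nt) and Lyn (1528 nt), with 65.0% and 80.4% of them covered by a narrower PTC peak. None of the listed myeloid genes held a member, of 14 (control) and 17 (PTC) with a peak. These counts do not speak for genes outside the chosen lists. Among such genes, Cd180 (2001 and 1971 nt), Tlr9 (2968 and 2578 nt), Ciita (1800 and 1740 nt) and Sirpa (1887 and 1947 nt) had members in both peak lists. Acod1 (1521 nt) had one in the PTC list only. Peak lists hold no expression levels, and the part of B or myeloid cells in the counts was not tested.

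Genes named as zinc finger genes held 54 of the 440 control genes with a member (12.3%) and 44 of the 362 PTC genes (12.2%). Among all genes with a peak they were 3.21% (control) and 3.46% (PTC). In coding sequence 36 of 238 control and 38 of 237 PTC members lay in them. Zinc finger proteins of the Krüppel type carry their fingers in 1 long last exon, and members such as Zfp790 (99.8% of 2885 nt in the control list) and Zfp51 (95.9% of 2216 nt in the PTC list) covered most of it. Zfp729a and Zfp729b are closely related, and so are the gene models Gm1966, Gm8995 and Gm4759. Reads could be split or shared between such copies, so their peaks are uncertain.

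The DRACH consensus was searched on the transcript strand by overlapping matches, together with its form GGACT. A match is a description of the sequence, not a methylated site. Members held 21.7 DRACH per kb (95% Poisson interval 21.4 to 22.0) in the control list and 22.1 (21.8 to 22.5) in the PTC list. Over all peaks the density was 21.2 and 21.9, and in the rest of the same exons, outside the member, it was 19.9 and 20.1. That rest is not free of peaks, since only the member itself was taken out. In the Ahnak exon each member counts in the rest of the other. GGACT stood at 1.10 per kb (1.03 to 1.17) and 1.15 (1.07 to 1.22) in members, at 1.24 and 1.33 over all peaks and at 0.912 and 0.877 in the rest of the exons. GC content was also higher in members, with 47.5% and 47.8% in members and 44.2% and 44.6% in the rest of the exons, and its part in the motif densities was not tested. At least 1 GGACT lay in 397 control (86.7%) and 317 PTC members (84.5%), against 34.5% and 37.5% of all peaks, most of which are far shorter.

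At equal length the contrast in the presence of GGACT was small. GGACT was found in the central 1500 nt of 80.5% of control members (76.6 to 84.1) and 75.7% of PTC members (71.0 to 79.9). The central 1500 nt of 4852 long exons without a member in either list held it in 74.6% (73.4 to 75.9). The median number of DRACH matches in such windows was 32 in members of each list and 30 in the exons without one. GGACT density in these windows was 1.11 (control) and 1.17 per kb (PTC) in members, and 0.946 in the exons without one. Of those exons 4237 were mostly UTR, and most long exons were touched by a peak of some width. They are thus neither matched to members by region nor free of peaks. Tet2, Selplg, Cxcr5 and Zfp729b had a member without GGACT, and each of these members held at least 25 DRACH matches.

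In some members the consensus recurred inside coding repeats. The 9-base word gtGGACAtt, with DRACH in capitals, occurred 23 times in the wider Ahnak member of each list, and words present at least 3 times made up 55.8% of the 258 DRACH matches of the PTC member. The Ahnak lines printed above lie in the narrower upstream member, where gtGGACAtt occurred 7 times in each list. They carry the GGACT variant of the same repeat, with the shared letters gatgt just before the motif. In Son, 13 GGACT sites within the word atGGACTcc stood in a row, 11 of the 12 spacings being exactly 30 nt, and the 4 Son lines above differ only upstream of the motif. Zfp729b carried ctAAACAca 16 times in its PTC member and 12 times in its narrower control member. Words with at least 5 copies were found in 16 control and 16 PTC members, of which 9 and 10 were centred in coding sequence. Mki67, Selplg, Zfp51 and Zfp738 were among them. Such repeats make reads hard to place uniquely, and whether this affected the width of these peaks was not tested.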

How the data were processed

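m6A immunoprecipitate and input were sequenced from control and PTC-treated mouse T cells, and the values used are 1 deposited peak list per condition. The sources used here do not give the caller, its thresholds or any pooling of samples. The submitters' processing notes name BWA 0.7.12, MACS2 2.1.0 and GRCm39 without a role. Per the file headers each peak has exon blocks, a p-value, a log p and log FDR (a log10 score, used as −log10 FDR) and a fold enrichment, a linear ratio whose scaling is not stated. These are the authors' own values and only describe, rank or filter peaks. The percent of reads in peaks is from the authors' deposited summary table. Read depth is unknown, since no counts are given, so no floor from depth can be set.

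Coordinates matched GENCODE M21 on GRCm38: 99.84% of control and 99.74% of PTC multi-exon peaks had an annotated first junction, and every wide peak lay inside its gene. Coordinates are therefore given on GRCm38, counted from 1. Regions follow the midpoint, in the order coding sequence, 3′ UTR, 5′ UTR, other exon. Exons were taken from the transcript that best contains the peak, and 1 member per list, in Cfap43, lay in no annotated exon. Sequences come from the GENCODE M21 transcripts. The lists were compared over exon blocks on the same strand, with at least 1 bp shared. Shares carry exact Clopper-Pearson and densities exact Poisson 95% intervals, which cover counting error only. Python 3.11.15, pandas 2.3.3, numpy 2.4.6, scipy 1.17.1 and matplotlib 3.10.9 were used. The overlap, end position and motif functions were tested on simulated data, and the assignment of regions was not.

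The members and gene lists were chosen with earlier results of these data known, so neither supports a result independently. Genes are named by rule: the widest, strongest and most enriched members of each list, genes with 2 or more members, those next to the minimum width, up to 4 members per gene list, and the pairs closest and farthest in position, without unnamed models and pseudogenes. Other names (among them Desi2, Camk2d, Gm8995, Gm1966, Gm4759, Zfp51, Zfp738, Kmt2c and genes listed by membership) were chosen after their values were seen. Since each condition has 1 list, conditions were not tested against each other and no p-value was computed. Alternatives varied the minimum width, the fold and FDR filters, the overlap rule, the region rule and the motif window. A few members are not reported here by name.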

Additional observations from a re-analysis of the deposited data

How the results depend on the processing

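With 1 list per condition no replicate could be left out. No paired analysis was possible because the peak lists carry no values of single samples. Intervals cover counting error only, and the strength of a peak depends on a read depth that is unknown. A minimum width of 1000 nt gave 1211 control and 1032 PTC peaks, and 2000 nt gave 200 and 151. Genes with a member only among control peaks, only among PTC peaks and in both then numbered 512, 333 and 623 at 1000 nt and 105, 57 and 90 at 2000 nt. Counting a gene as shared when it has any peak in the other list left 0, 0 and 573. The coding share of members in protein-coding genes was 43.0% (control) and 53.8% (PTC) at 1000 nt, and 63.7% (56.4 to 70.5) and 69.4% (61.2 to 76.8) at 2000 nt, where the intervals overlap. The 3′ UTR share was 55.6% and 44.4% at 1000 nt, and 34.2% and 29.9% at 2000 nt. The share met by the other list fell to 94.7% (control) and 96.9% (PTC) with a fold of at least 4 in both lists, to 81.9% and 91.2% with at least 50% of each peak shared, and to 51.5% and 63.2% with only wide single-exon partners. DRACH per kb was 21.4 (control, 1000 nt) and 22.9 (PTC, 2000 nt), and 21.3 and 20.6 within 50 nt either side of the midpoint, where GGACT was 0.908 and 0.792. The cause of these moves was not tested, other than fewer or more peaks entering at another width or filter. Merging members that overlap within a list, an alternative added after seeing the data, left 450 and 366. In all, 31 of 62 alternative values stayed within the interval or within 1.5 times the count.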
